A study of Mus musculus with 2116 samples.

Results

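Heat shock proteins and related chaperones were examined as 10 genes, Hspa1a, Hspa1b, Hspa8, Dnajb1, Dnaja1, Hsph1, Hsp90aa1, Hsp90ab1, Hspe1 and Hspa5, out of the 23725 genes of the count table. They were taken by name, and all 10 have a row in the table. Unique molecular identifier (UMI) counts were compared between single regulatory T cells (Treg) and conventional CD4+ T cells (Tconv) of the spleen, and across the cells within each library. inDrops, a droplet method, tags each mRNA molecule once at its poly(A) end, so that levels of genes of unlike length can be set side by side. The Treg library held 816 cells and the Tconv library 1300, and both came from male mice aged 8 months of the strain labelled B6 Foxp3-Ires-Gfp. The reporter is thus carried by both groups. Cells were sorted as DAPI-, TCRb+ and CD4+. The sort protocol names GFP+ cells for both populations, so the groups were read from the title codes TR and TC and the series title. Each group is 1 library, and no animals are named.

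Because there was 1 library per group, no test between groups was possible. Every interval given is an exact 95% interval that covers counting error only. A gene is called higher or lower where its level in UMIs per 1000000 UMIs of the library (CPM) differed at least 1.5-fold. The libraries held 1468203 UMIs in Treg and 2002752 in Tconv, with medians of 1689 and 1511 UMIs per cell, so that 1 UMI is worth 0.681 CPM in Treg and 0.499 in Tconv. Foxp3, the transcription factor that defines Treg, stood at 380 CPM in Treg and 2.996 CPM in Tconv, and the T cell genes Cd3e and Cd4 were present in both libraries (234.3 and 255.15 CPM for Cd3e, 501.97 and 703.03 CPM for Cd4). Ribosomal protein genes made up 26.1% of the Treg UMIs and 32.6% of the Tconv UMIs, which moves the level of every other gene. Among genes with at least 20 UMIs the median gene had a log2 ratio of Treg over Tconv of 0.14, and of 0.01 once ribosomal protein genes were left out of the totals. The libraries shared 12 cell barcodes, and at least 3 UMIs of a list of another cell type were found in 56 Treg and 31 Tconv cells. The plasmacytoid dendritic list gave the most, 29 Treg and 17 Tconv cells. Whether these cells are of another type was not tested.

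Chaperones of the HSP70 family bind short hydrophobic stretches of unfolded proteins in a cycle driven by ATP. J proteins such as Dnajb1 and Dnaja1 start that cycle, and nucleotide exchange factors such as Hsph1 end it by releasing the client. HSP90 acts later, on nearly folded clients such as kinases and steroid receptors, Hspe1 closes the folding chamber of mitochondria, and Hspa5 (BiP) is the HSP70 of the endoplasmic reticulum (ER). Heat shock factor HSF1 binds repeats of the letters GAA and its reverse complement TTC in the promoters of inducible members, while Hspa5 is a classical target of the unfolded protein response of the ER. In T cells, HSP90 and HSP70 are known to assist kinases of antigen receptor signalling such as Lck.

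Hspa1a and Hspa1b encode the stress-inducible cytosolic HSP70 and are near-identical neighbours on mouse chromosome 17, both on the minus strand. Their promoters are shown because the pair is the classical readout of a heat shock response. The 250 bases before each start site (RefSeq, GRCm38.p6) are chr17:34972157-34972406 for Hspa1a and chr17:34959239-34959488 for Hspa1b. Capitals mark the heat shock letters GAANNTTC, which begin at the same distance from the start in both.
Hspa1a: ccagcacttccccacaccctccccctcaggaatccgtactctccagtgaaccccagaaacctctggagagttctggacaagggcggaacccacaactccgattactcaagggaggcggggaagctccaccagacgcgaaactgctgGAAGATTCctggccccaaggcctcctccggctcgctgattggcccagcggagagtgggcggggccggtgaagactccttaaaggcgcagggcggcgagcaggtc
Hspa1b: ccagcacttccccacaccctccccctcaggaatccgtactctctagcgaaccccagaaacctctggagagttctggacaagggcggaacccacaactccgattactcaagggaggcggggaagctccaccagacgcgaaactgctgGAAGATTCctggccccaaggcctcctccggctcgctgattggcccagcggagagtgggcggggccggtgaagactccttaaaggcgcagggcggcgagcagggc
The stretches differed at 3 of 250 positions. The letters GAANNTTC read the same on both strands and occurred in 7.86% of 32851 promoters of 300 bases in the RefSeq table. A match describes the letters only.

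Inducible HSP70 was close to undetected in both libraries. Hspa1a had 0 UMIs in the Treg library, with an upper limit of 2.51 CPM for its interval, and 1 UMI in the Tconv library. Hspa1b was seen as 7 UMIs in Treg against 3 in Tconv, or 4.77 and 1.498 CPM, a ratio of 3.18 with an interval of 0.73 to 19.1. Of the 7 Treg UMIs of Hspa1b, 6 came from a single cell, and in all only 2 Treg cells and 3 Tconv cells had any. The sum of both genes was 4.77 CPM in Treg and 1.997 in Tconv, and the interval of its ratio, 0.61 to 11.1, spans 1. The transcripts are 99.1% identical over 2200 bases, although their 3′ ends did not align, so reads of one may have been counted for the other or dropped. These genes were therefore too rare at this depth for a comparison between groups, and neither entered a count of higher or lower genes.

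Hspa8, the constitutive cytosolic HSP70 (HSC70, chromosome 9), was the more abundant form by far. It stood at 639.6 CPM in Treg (599.3 to 681.8) and 706.03 CPM in Tconv (669.7 to 743.8). The log2 ratio of Treg over Tconv was -0.14, with an interval from -0.26 to -0.02, and -0.28 relative to the median of all genes. Hspa8 thus took a slightly smaller share of the Treg library. Among cells thinned to 1000 UMIs each, with shallower cells left out, the share with a Hspa8 UMI was 41.1% in Treg (37.5% to 44.7%) and 48.9% in Tconv (45.9% to 51.9%). These intervals, from a single draw, do not overlap. Averaged over all draws of 1000 UMIs the shares were 42.3% and 47.7%. Without thinning they were 54.2% (50.7% to 57.6%) and 59.7% (56.97% to 62.4%), with overlapping intervals. These genes are active in most cell types, so no cell class here gives their level of free RNA. Annotated transcripts at least 95% identical to Hspa8 over at least 100 of its last 500 bases come from 6 other genes, none of them listed in the table, so its reads may be partly lost to such copies. The same search found 1 such gene for Hsp90ab1 and 1 for Hspe1.

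Neither J protein reached 1.5-fold. Dnajb1, a J protein of the heat shock response (chromosome 8), stood at 99.4 CPM in Treg (83.97 to 116.9) and 77.9 CPM in Tconv (66.1 to 91.1), with a log2 ratio of 0.35 (0.02 to 0.69). Dnaja1 (chromosome 4) stood at 256.8 CPM (231.5 to 284.05) and 199.7 CPM (180.6 to 220.3), with a log2 ratio of 0.36 (0.16 to 0.57). Both intervals lie above 0. Relative to the median of all genes the ratios were 0.21 and 0.22, and the interval of Dnajb1 then spans no difference. Other measured J proteins of the lists lay on both sides of 0. Below it were Dnaja2 at -0.28, Dnajb6 at -0.34, Dnajc3 at -0.36, Dnajc7 at -0.08 and Dnaja3 at -0.06. Above it were Dnajb4 at 0.73, Dnajb9 at 0.22 and Dnajb11 at 0.10. Of these, Dnajc3, Dnaja3, Dnajb9 and Dnajb11 were named after their values had been seen. Dnaja1 outnumbered Dnajb1 2.58-fold in Treg (2.13 to 3.15) and 2.56-fold in Tconv (2.13 to 3.11), so the balance of the pair was the same within counting error. In thinned cells Dnajb1 was found in 8.40% of Treg and 7.04% of Tconv cells, and Dnaja1 in 17.2% and 15.7%, with overlapping intervals for both.

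Hsph1 (HSP110, chromosome 5), the nucleotide exchange factor, was the rarest of the 8 genes with at least 20 UMIs. It stood at 49.04 CPM in Treg, or 72 UMIs, and 60.4 CPM in Tconv, and the log2 ratio of -0.30 had an interval that spans 0 (-0.74 to 0.13). A few cells held much of its signal. A single Treg cell gave 10 of the 72 UMIs, and only 32 Treg and 59 Tconv cells had any. Together with Hspa1a, Hspa1b and Dnajb1, it forms the group of inducible genes, which was sparse in both libraries.

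The promoters of Hsph1 and Hspe1 hold the longer, 3-unit form of the heat shock letters, GAANNTTCNNGAA or TTCNNGAANNTTC, found in 0.603% of promoters in the table. Dnaja1 holds the shorter GAANNTTC in the first of its 3 listed windows and none of the letters in the others, and both windows of Dnajb1 hold none of these letters. No entry was matched for Hsp90aa1, Hsp90ab1 and Hspa8. The stretches below are shown to set the elements of the measured genes side by side with that of the Hspa1 pair, and capitals mark the element: chr4:40722333-40722362 on the plus strand for Dnaja1, chr5:149636287-149636316 on the minus strand for Hsph1, and chr1:55088053-55088082 on the plus strand for Hspe1.
Dnaja1: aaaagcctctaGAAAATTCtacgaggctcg
Hsph1: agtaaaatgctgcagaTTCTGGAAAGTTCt
Hspe1: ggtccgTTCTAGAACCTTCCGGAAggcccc
The element begins 89 bases before the start in Hspe1 and 36 bases after the first of 2 listed starts in Hsph1. In Hspe1 a pair of 3-unit matches overlap, and all of their letters are in capitals. None of Dnaja1, Hsph1 and Hspe1 differed 1.5-fold between the libraries.

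Of the HSP90 pair, the constitutive form was the more abundant in both libraries. Hsp90ab1 (HSP90 beta, chromosome 17) stood at 842.5 CPM in Treg (796.2 to 890.8) and 734.99 CPM in Tconv (697.9 to 773.5), with a log2 ratio of 0.20 (0.09 to 0.31). Hsp90aa1 (HSP90 alpha, the more inducible form, chromosome 12) stood at 237.02 CPM (212.8 to 263.3) and 218.2 CPM (198.2 to 239.65), with a log2 ratio of 0.12 (-0.09 to 0.33). Neither difference is far from that of the median gene. Relative to the median of all genes the log2 ratios were 0.06 for Hsp90ab1 and -0.02 for Hsp90aa1, and with totals by TMM (a scaling that balances most genes) they were 0.04 and -0.04. The beta form outnumbered the alpha form 3.55-fold in Treg (3.15 to 4.02) and 3.37-fold in Tconv (3.03 to 3.76). The share of thinned cells with a UMI was 43.2% and 41.2% for Hsp90ab1 and 15.4% and 16.2% for Hsp90aa1 in Treg and Tconv.

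Hspe1 (HSP10), the lid of the mitochondrial chaperonin, took a slightly smaller share of the Treg library and was not called lower. It stood at 281.3 CPM in Treg (254.8 to 309.8) and 328.05 CPM in Tconv (303.4 to 354.1), with a log2 ratio of -0.22 (-0.40 to -0.04). The share of thinned cells with a UMI was 18.02% in Treg (15.3% to 20.99%) and 24.01% in Tconv (21.5% to 26.6%), and the intervals do not overlap. Averaged over all possible draws of 1000 UMIs the shares were 17.8% and 24.4%. Its partner Hspd1 (HSP60), whose gene starts head to head with Hspe1 on chromosome 1, stood at 85.8 and 76.4 CPM, with a log2 ratio of 0.17 (-0.18 to 0.52). Hspe1 outnumbered Hspd1 3.28-fold in Treg (2.68 to 4.03) and 4.29-fold in Tconv (3.60 to 5.15), with overlapping intervals. Whether counting used the strand is not given in the sources used here, and the 2 genes overlap only at their 5′ ends.

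Hspa5 was the 1 member at least 1.5-fold higher in Treg. It lies on chromosome 2, and its promoter is shown because it holds the ER stress element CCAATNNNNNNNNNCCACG, which 39 of the 32851 promoters hold (0.119%). This motif was added after the values had been seen. The stretch is chr2:34772020-34772049 on the plus strand, with the element in capitals, beginning 65 bases before the start.
Hspa5: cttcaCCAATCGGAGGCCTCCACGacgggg
Hspa5 stood at 397.8 CPM in Treg (366.1 to 431.4) and 245.7 CPM in Tconv (224.4 to 268.4), and these intervals do not overlap. It was 1.62-fold higher in Treg (1.43 to 1.83), a log2 ratio of 0.70 (0.52 to 0.87). Leaving ribosomal protein genes out of the totals gave 0.56, and TMM gave 0.54, both just under 1.5-fold. Cytosolic Hspa8 outnumbered Hspa5 1.61-fold in Treg (1.45 to 1.79) and 2.87-fold in Tconv (2.59 to 3.19). These ratios within a library do not depend on its total, and their intervals do not overlap.

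Read against all genes, the members differed little between the libraries. Of the 8 measured members 1 was called higher and 0 lower, where 20.6% of all 8988 genes with at least 20 UMIs were called higher in Treg and 9.16% lower. Of the 7 members with at least 200 UMIs, again 1 was called higher and 0 lower, against 12.3% and 3.25% of 2673 genes. A count of 1 in 8 is near the background. The median log2 ratio of the 8 members was 0.16, beside 0.14 for all genes. Intervals lay above 0 for 4 members (Hspa5, Dnaja1, Dnajb1 and Hsp90ab1), below 0 for 2 (Hspa8 and Hspe1), and spanned 0 for 2 (Hsp90aa1 and Hsph1). Set against the median of all genes instead of 0, the tally turned to 2 above (Hspa5 and Dnaja1), 3 below (Hspa8, Hspe1 and Hsph1) and 3 spanning it. Summed over the 10 genes the members held 4123 Treg UMIs and 5153 Tconv UMIs, or 0.281% and 0.257% of the library, a log2 ratio of 0.13 (0.07 to 0.19). Without Hspa5 it was 0.05 (-0.01 to 0.11).

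**Figure D1:**
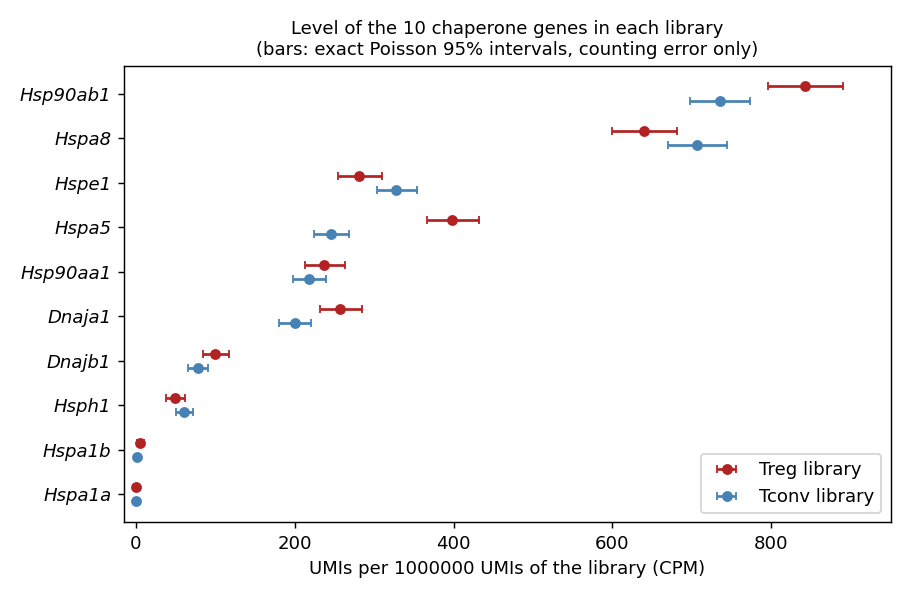
Level of each chaperone gene in each library, in UMIs per 1000000 UMIs (CPM, linear axis), with exact Poisson 95% intervals for counting error, red for the Treg library and blue for the Tconv library. Hsp90ab1 and Hspa8 lie above 600 CPM in both libraries, Hspa1a and Hspa1b lie close to 0, and Hspa5 shows the widest gap (397.8 against 245.7 CPM).

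The order of the levels was nearly the same in both libraries. In Treg it ran from Hsp90ab1 through Hspa8, Hspa5, Hspe1, Dnaja1, Hsp90aa1, Dnajb1 and Hsph1 to Hspa1b and Hspa1a. Within it the intervals overlapped for the neighbours Hspe1 and Dnaja1, Dnaja1 and Hsp90aa1, and Hspa1b and Hspa1a. In Tconv Hspe1 stood above Hspa5 and Hsp90aa1 above Dnaja1. There the neighbours with overlapping intervals were Hsp90ab1 and Hspa8, Hspa5 and Hsp90aa1, Hsp90aa1 and Dnaja1, Dnajb1 and Hsph1, and Hspa1b and Hspa1a.

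**Figure D2:**
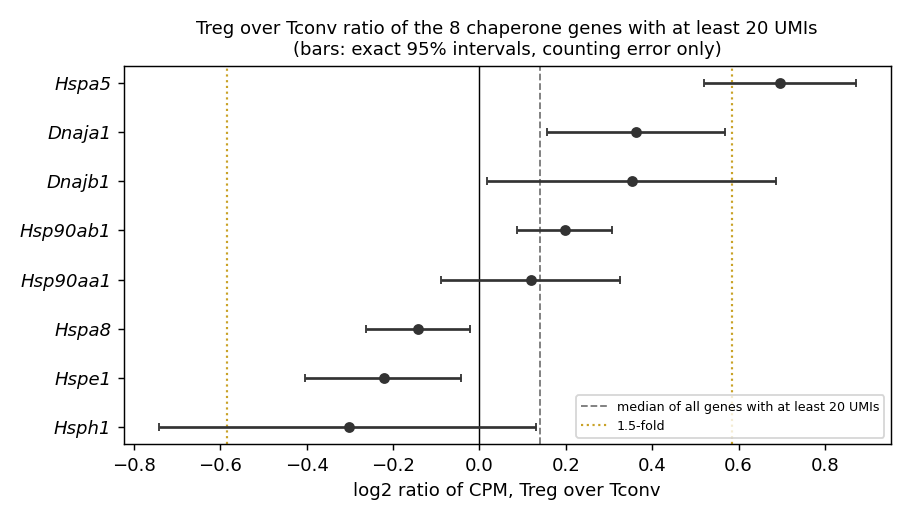
Log2 ratio of CPM, Treg over Tconv, for the 8 chaperone genes with at least 20 UMIs, with exact 95% intervals for counting error. The dashed line marks the median ratio over all measured genes (0.14) and the dotted lines are 1.5-fold in each direction, which Hspa5 (0.70) passes and no other member reaches.

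The difference in Hspa5 lay both in the number of positive cells and in the UMIs per positive cell. After thinning, the share of cells with a UMI of Hspa5 was 19.4% in Treg (16.6% to 22.4%) and 16.8% in Tconv (14.6% to 19.1%), with overlapping intervals. Averaged over all draws the shares were 20.6% and 16.1%. For the median gene the ratio of shares, Treg over Tconv, was 0.963, and for Hspa5 it was 1.15. Positive cells held 1.87 UMIs in Treg and 1.48 in Tconv, a ratio of 1.26. The median of 2640 genes had 1.43 and 1.25 UMIs per positive cell, a ratio of 1.12, so part of this gap was general to the libraries. The Treg library was also read more deeply, with 31.9 mapped reads per UMI against 19.1 in Tconv per the labels. The part of this depth in the gap was not tested. At least 4 UMIs of Hspa5 were held by 12 Treg cells and 10 Tconv cells, which carried 26.6% and 15.6% of all its thinned UMIs. Of those cells 1 in Treg and 0 in Tconv had at least 3 UMIs of a list of another cell type.

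**Figure D3:**
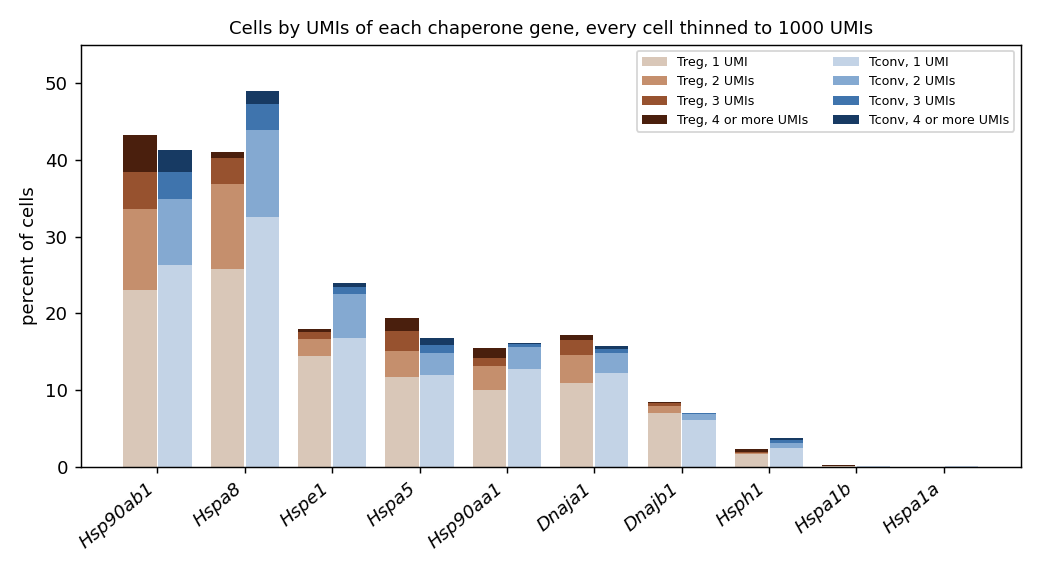
Percent of cells with 1, 2, 3 or at least 4 UMIs of each chaperone gene, after thinning every cell to 1000 UMIs, with brown stacks for the Treg and blue stacks for the Tconv cells. The stacks of Hspa8 and Hspe1 are taller in Tconv (48.9% and 24.01% against 41.1% and 18.02%), and the darkest step of Hspa5, at least 4 UMIs, holds 12 Treg and 10 Tconv cells.

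Spread across cells was described by the Fano factor, the variance over the mean of UMIs per thinned cell. It is 1 for independent counts at the same rate in every cell. For Hspa5 it was 2.70 in Treg and 1.77 in Tconv, above 91.4% and 82.9% of genes with a mean of at least 0.05. Hspa8 was among the more even genes, at 1.30 and 1.22, and Hsp90ab1 lay at 1.85 and 1.62. The median over all such genes was 1.74 in Treg and 1.35 in Tconv. Hsph1, rare but uneven, reached 2.31 in Tconv, above 97.2% of genes, but 1.35 when cells were thinned to 500 UMIs and 1.95 without its richest cell. Values above 1 mean that cells varied more than independent counts at the same rate would. Rates that differ between cells and dependent UMIs cannot be told apart here. Counting intervals leave this spread out and so understate the error, and by how much was not estimated.

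No pair of chaperone genes was more than weakly correlated from cell to cell. Over 738 Treg cells, the 21 pairs of the 7 members with a mean of at least 0.05 UMIs had Pearson r between -0.05 and 0.10, with a median of 0.01. Hsp90ab1 and Hspa8 had the highest value. Over the thinned Tconv cells, the 28 pairs of 8 members had r between -0.05 and 0.08. The cells of a pair share their library and depth, and correlations this weak in sparse counts are no finding.

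The summed UMIs of the 10 genes spread slightly wider in Treg. The median thinned cell had 2 UMIs in both libraries and the mean was 2.69 in Treg and 2.53 in Tconv. Cells with 0 were 16.4% of Treg and 11.9% of Tconv, and cells with at least 10 were 12 in Treg (1.63%) and 5 in Tconv (0.451%). The highest cell held 16 UMIs in Treg and 14 in Tconv. No separate group of high cells stood apart from the rest, since 10 Treg cells held 9 UMIs and 4 held 10, and 7 and 2 Tconv cells did. The Fano factor of the sum was 2.11 in Treg and 1.55 in Tconv. For the median single gene it was 1.74 and 1.35, so a wider spread in Treg was not particular to the chaperones.

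**Figure D4:**
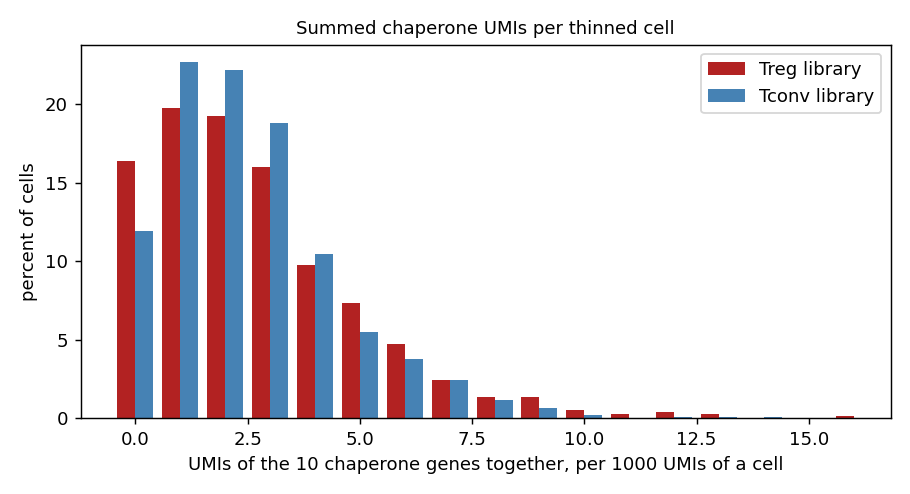
Percent of cells (vertical axis) by the summed UMIs of the 10 chaperone genes per 1000 UMIs of a cell (horizontal axis), red for Treg and blue for Tconv. Both distributions peak at 1 UMI and fall off without a gap up to 9 UMIs, and Treg has more cells at 0 (16.4% against 11.9%).

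Cells with a UMI of Hspa1a or Hspa1b were too few to describe a state. After thinning there were 2 in Treg and 3 in Tconv. The other 8 chaperone genes summed to a mean of 3 UMIs in those Treg cells and 2.68 in the remaining ones, and to 3.33 and 2.52 in Tconv. Cells with a UMI of Myc, a driver of growth in activated T cells, were 43 in Treg and 90 in Tconv. The level of the sum of the 10 genes in them, over that in the other cells, was 1.32 in Treg (1.11 to 1.56) and 1.13 in Tconv (0.99 to 1.29). Over the 8 measured members this ratio ran from 0.90 (Dnajb1) to 1.79 (Dnaja1, 1.07 to 2.84) in Treg and from 0.35 (Hsph1, 0.04 to 1.33) to 1.78 (Dnaja1, 1.18 to 2.61) in Tconv. Dnaja1 was the 1 member whose interval lay above 1, and in Tconv the ratios of Dnajb1 and Hspe1 were 0.53 and 0.89. This split was chosen after the data had been seen and compares cells within a library only.

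The summed chaperone level was higher in deeper cells, although not for every member. Each library was split into 3 parts of equal size by UMIs per cell. In Treg the summed level was 2402 CPM in the shallowest part and 3191 CPM in the deepest, and in Tconv 2287 and 2780 CPM. Hsp90ab1 went from 663.15 to 1001.5 CPM in Treg and from 634.6 to 856.2 in Tconv, and Hspe1 from 216.5 to 335.2 and from 278.9 to 350.3. Hspa5 differed less, at 389.1 and 420.8 CPM in Treg and 225.5 and 263.3 CPM in Tconv. Hsp90aa1 was at 243.6 and 253.9 CPM in Treg and 206.9 and 234.99 CPM in Tconv. Dnajb1 was not higher in the deepest part. In Treg it was at 118.4 CPM (82.5 to 164.7) and 86.96 CPM (66.7 to 111.5). In Tconv it was at 76.7 CPM (52.8 to 107.7) and 72.9 CPM (56.5 to 92.6), with 85.7 CPM in the middle part. Its intervals overlapped in both libraries. This split, also chosen after the data had been seen, shares its UMIs between the level and the depth, and the part of depth itself was not tested.

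Genes whose UMIs went along most with the chaperones across cells had low correlations too. With the sum of the 10 genes these were, in Treg, Cycs, Pdia6, Tnfrsf4, Mthfd1l, Eif5a and Itgb7 (r of 0.12 to 0.14 over 738 cells, the highest of 3260 genes). In Tconv they were Eif5a, Fasn, Ppia, Pomp, Aldoa and Lsm7 (0.09 to 0.12 over the thinned cells, of 2886 genes). Eif5a, a translation factor, was in both. With the sum of the inducible Hspa1a, Hspa1b, Dnajb1 and Hsph1 they were Hadha, Puf60, Otulin, Rexo1, Inpp5f and Psma3 in Treg and Acyp1, Tmem127, S100a11, Ppp2ca, Atp6v1e1 and Eed in Tconv, with r from 0.10 to 0.14 and no gene in common. Values at the top of so many weak correlations are no finding.

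Listed partners and relatives of the cytosolic members differed little between the libraries. Of 15 measured genes of the HSP70 system, 3 were at least 1.5-fold higher in Treg and 1 lower, near the 20.6% and 9.16% of all genes, with a median log2 ratio of 0.15. The higher ones were the HSP110 relative Hspa4l (23 and 8 UMIs, log2 ratio 1.97), Hspa14 (73 and 58 UMIs, 0.78) and the J protein Dnajb4 (39 and 32 UMIs, 0.73). The lower one was Hspa13, named after its values had been seen (10 and 24 UMIs), whose interval spans 0. The most abundant partners, the J proteins Dnaja2, Dnajb6 and Dnajc7, had log2 ratios of -0.28, -0.34 and -0.08. Of the 13 measured HSP90 cochaperones and relatives, 0 were higher and 0 lower, with a median of -0.01. Among them were the immunophilin Fkbp8 at 0.09 and the kinase cochaperone Cdc37 at 0.23.

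In the chaperonin and prefoldin list, 0 of 15 measured genes were higher and 1 was lower, beside 20.6% and 9.16% of all genes, with a median log2 ratio of 0.01. The lower gene was Vbp1, a prefoldin subunit (40.2 and 74.4 CPM, -0.89, interval -1.35 to -0.44). Subunits of the cytosolic chaperonin, which folds actin and tubulin, lay on both sides of 0, with the most abundant, Cct2, Cct4 and Cct7, at -0.19, 0.12 and -0.09. Cct5 at -0.43 and Cct8 at 0.31, named after their values had been seen, lay farther out, with intervals that do not reach 0. In the list 4 intervals lay below 0 and 1 above. Of 8 mitochondrial chaperone genes 1 was higher and 0 lower, with a median of 0.17. It was Timm44, which tethers mitochondrial HSP70 to the import channel (49 and 33 UMIs, 1.02). Hspa9, the mitochondrial HSP70, stood at 79.01 and 99.86 CPM, a log2 ratio of -0.34, and its exchange factor Grpel1 was at 0.17. In the list of small heat shock proteins and heat shock factors, 2 of 7 genes had at least 20 UMIs. These were Hspb11 (36 and 67 UMIs, -0.45) and Hsf1 (34 and 59 UMIs, -0.35), both with intervals that span 0. Hspb11 was listed by its symbol only, and whether it acts as a chaperone was not examined. Hspb1 and Hspb8, named after their values had been seen, had at most 1 UMI in a library, and Cryab, named likewise, had 0.

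The ER list is the one Hspa5 belongs to by function. Of its 18 measured genes 2 were higher in Treg and 0 lower, beside the 20.6% and 9.16% of all genes, and the median log2 ratio was 0.15, close to that of all genes. Those 2 were Xbp1 and Creld2. Intervals lay above 0 for 5 genes and below 0 for 1, and above the median ratio of all genes for 4 and below it for 2. Calr (calreticulin, a lectin chaperone that also binds calcium) stood at 604.8 CPM in Treg and 448.4 in Tconv, with a log2 ratio of 0.43 (0.30 to 0.57). Hsp90b1, the HSP90 of the ER, stood at 185.3 and 132.3 CPM, a ratio of 0.49 (0.24 to 0.74). Neither of these abundant ER genes reached 1.5-fold. The transcription factor Xbp1 stood at 75.6 and 34.5 CPM, a ratio of 1.13 (0.69 to 1.59), while Manf, another abundant ER gene, was at -0.13 (-0.34 to 0.09). Creld2, named after its values had been seen, had 25 and 21 UMIs, and its interval spans 0. Dnajc3, an ER J protein named likewise, was the 1 gene with its interval below 0 (97.4 and 124.8 CPM, -0.36, interval -0.66 to -0.06), and it did not reach 1.5-fold.

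**Figure D5:**
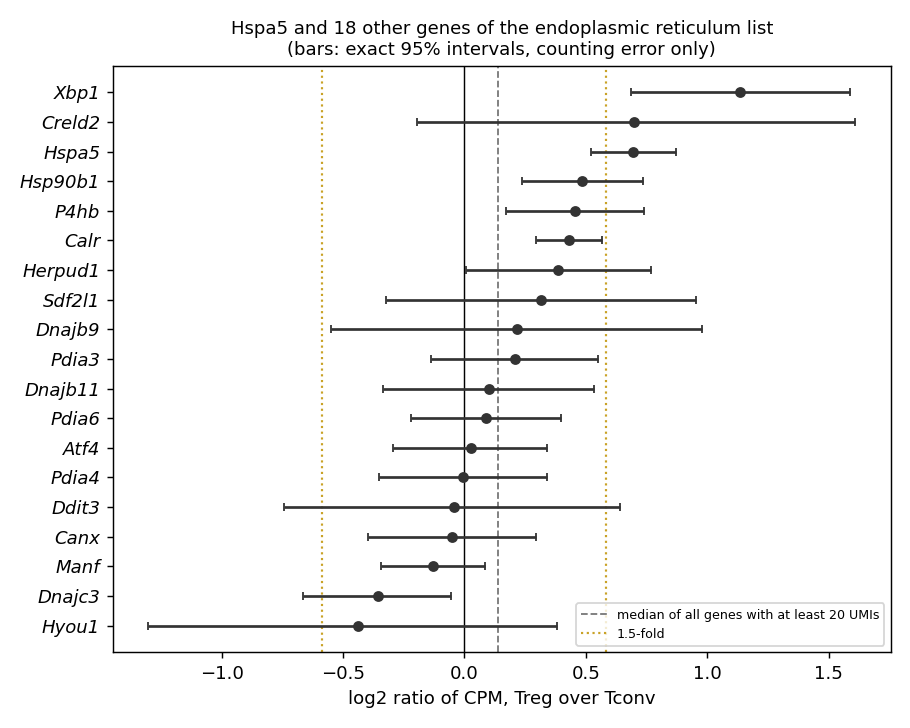
Log2 ratio of CPM, Treg over Tconv, of Hspa5 and the 18 measured genes of the ER list, with exact 95% intervals for counting error, the dashed line at the median of all genes (0.14) and dotted lines at 1.5-fold. Xbp1, Hspa5, Hsp90b1, P4hb, Calr and, barely, Herpud1 lie above 0 with their whole intervals, the others span 0, and Dnajc3 lies below.

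Plasma cells hold much ER chaperone RNA, and their markers were therefore set beside these values. The 5 genes of the plasma cell list summed to 105.6 CPM in Treg and 238.7 in Tconv. Jchain had 0 UMIs in Treg and 185.7 CPM in Tconv, while in UMIs Sdc1 had 1 and 5, Mzb1 24 and 16, and Prdm1 19 and 16. The fifth gene of the list is Xbp1 itself. At least 3 UMIs of the list were found in 14 Treg and 6 Tconv cells. The B cell list summed to 514.2 CPM in Treg and 136.3 in Tconv. The 56 Treg and 31 Tconv cells that held at least 3 UMIs of a list of another cell type were then left out. Without them the log2 ratio of Hspa5 was 0.75 (0.57 to 0.93), that of Calr 0.49 and that of Hsp90b1 0.42. The ratio of Xbp1 was then 0.72, from a filter that removes cells by Xbp1 among other genes.

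Dissociation of tissue is known to induce immediate early genes and heat shock genes together, and this list was read beside the inducible chaperones. Of its 13 measured genes 5 were higher in Treg and 1 lower, beside 20.6% and 9.16% of all genes, with a median log2 ratio of 0.51. In this list 10 intervals lay above 0, and 9 above the median of all genes. The phosphatase Dusp1 (35 and 13 UMIs) was at 1.88, the nuclear receptor Nr4a1, a target of antigen receptor signalling (80.4 and 36.45 CPM), at 1.14, Egr1 at 0.69 and Junb at 0.68. The abundant Jund, Ier5 and Zfp36 were at 0.51, 0.50 and 0.50. Jun, named after its values had been seen, was also higher (20 and 11 UMIs). Fos, named likewise, was the lower one (9 and 21 UMIs), and its interval spans 0 (-2.08 to 0.41). Of the inducible chaperones, Hspa1a and Hspa1b had at most 7 UMIs in a library, Dnajb1 was at 0.35 and Hsph1 at -0.30. The part of dissociation in any of these values was not tested.

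Growth genes gave no common direction against 0, but more of them lay below the median gene than above it. Of 13 measured genes of the growth and Myc list 1 was higher in Treg and 1 lower, beside 20.6% and 9.16% of all genes. The median log2 ratio was -0.06, beside 0.14 for all genes. Intervals lay above 0 for 3 genes and below 0 for 1, and above the median ratio of all genes for 2 and below it for 6. Myc itself, named after its values had been seen, stood at 190.7 and 142.3 CPM, a log2 ratio of 0.42 (0.18 to 0.67). Eif5a stood at 826.2 and 547.25 CPM (0.59), and the spermidine synthase Srm at 46.996 and 72.4 (-0.62). The abundant nucleolar genes Npm1 and Ncl were at -0.09 and 0.07. Among T lineage genes, 1 of 7 was higher and 0 lower, with a median of -0.19. It was Cd5, an inhibitory receptor whose level follows antigen receptor signalling (225.45 and 137.8 CPM, 0.71). Lck was at 0.05 and Thy1 at -0.37.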

How the data were processed

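The authors deposited raw UMI counts per gene and cell for 816 Treg and 1300 Tconv cells, as whole numbers up to 368 per the values. Per the submitters' processing notes TopHat2, SAMtools and the build mm10 were used, with versions, annotation, UMI counter and cell filter not given in the sources used here. Depth per cell ran from 81 to 8221 UMIs in Treg and from 229 to 6004 in Tconv.

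The UMIs of the members numbered, in Treg and Tconv, 939 and 1414 for Hspa8, 146 and 156 for Dnajb1, 377 and 400 for Dnaja1, and 72 and 121 for Hsph1. They numbered 1237 and 1472 for Hsp90ab1, 348 and 437 for Hsp90aa1, 413 and 657 for Hspe1, and 584 and 492 for Hspa5. UMIs were summed per library and divided by its total in genes (CPM). Levels have exact Poisson, shares of cells exact Clopper-Pearson and ratios exact conditional 95% intervals. With 1 library per group, no test between groups was run. Counts and medians used genes with at least 20 UMIs over both libraries. For values per cell, each cell was thinned to 1000 UMIs without replacement, leaving 738 Treg and 1108 Tconv cells. Pearson r used log2(1 + UMIs). Scrublet in scanpy 1.11.5 marked 15 Treg and 16 Tconv doublets, which were kept except in an alternative. TMM factors came from edgeR 4.0.16, and transcripts were aligned with blastn 2.17.0 to GENCODE annotation of GRCm38. Ratios and their intervals were checked on simulated counts with known folds.

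The members and lists were chosen with earlier results of these data known. Named genes were all 10 members, from each list the 3 most abundant genes and up to 4 past 1.5-fold with an interval beyond 1, and the 6 genes most alike per sum and library. The splits by depth and Myc, and the Hspa5-rich cells, were added after seeing the data. Promoters are from the RefSeq table of GRCm38.p6. Protein sequences were not used here.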

Additional observations from a re-analysis of the deposited data

How the results depend on the processing

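With 1 library per group there is no replicate check, and the intervals cover counting error only. No paired analysis was possible because each group is 1 library and the numbers in the titles are cell numbers. When the 8 member ratios were recomputed under each alternative, 89 values moved by less than the counting interval, 15 by more, and 6 differed in sign, for Hsp90aa1 or Hsp90ab1. The ratio of Hspa5 ranged from 0.21 (shares of thinned cells alone) to 0.75. The number of members at least 1.5-fold higher was 0 without ribosomal protein genes in the totals, with TMM, in the single thinned draw, at a fold of 2 and by shares of cells (1 draw or the average over all draws), and 2 without the minimum of 20 UMIs, where Hspa1b enters. The number lower was 1 (Hsph1) in the thinned draw and by its shares. The log2 ratio of the sum was -0.0063 without ribosomal protein genes, -0.029 with TMM and 0.067 without cells above 2 times the median depth. The median of the 8 members was -0.073 by average shares of cells. Among all genes, the shares higher and lower went from 20.5% and 9.14% to 15.2% and 12.8% without ribosomal protein genes, and to 14.3% and 13.6% with TMM. The causes were not tested, except that a total without ribosomal protein genes shifts every ratio alike. The alternatives by shares of cells and the average over draws were chosen after seeing the data. Of 90 alternatives of the list medians, 89 stayed within a spread and 13 differed in sign. This spread ran from the median lower limit to the median upper limit of the genes in the list. It is about as wide as the interval of a single gene, so staying within it says little. Shares of cells moved in 31 of 60 and Fano factors in 21 of 60 alternatives, which include thinning to 500 or 1500 UMIs.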
